A study of Homo sapiens with 32 samples.

Results

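Guidance and adhesion genes of the cadherin, semaphorin, ephrin, SLIT and netrin systems were followed during the differentiation of human embryonic stem cells towards β-like cells. The genes were chosen by symbol alone, as the cadherins, protocadherins, CELSR and FAT cadherins, teneurins, semaphorins, plexins, neuropilins, ephrins, Eph receptors, SLIT and ROBO genes, netrins, UNC5 receptors and the LRRTM and SLITRK genes. Of 198 symbols that match, 85 had counts among the 7978 genes of the deposited table, with 456 of its 26104 merged peaks, and the other 113, which had no merged peak, are left aside. The 85 genes were 7 ephrins, 9 Eph receptors, 16 semaphorins, 7 plexins, 2 neuropilins, 2 SLIT genes, ROBO1, 2 netrins, 3 UNC5 genes, 2 teneurins, SLITRK4, 6 classical cadherins, 3 CELSR genes, 3 FAT genes, 14 clustered protocadherins and 7 other protocadherins.

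RNA came from H1 and MEL1, 2 established lines of human embryonic stem cells, taken at 4 stages, S0 for undifferentiated cells, S3 for posterior foregut, S4 for the pancreatic progenitor stage and S6 for cells that are β-like but immature, and no treatment besides the differentiation is named. Each line and stage had 2 replicates, which the labels call clones, and each of the 16 RNA preparations gave an input library and a library of fragments bound by an antibody to N6-methyladenosine (m6A), called IP. The study counts such samples as independent biological ones. No label says that the 2 replicates were separate differentiations, so p-values measure the spread between these samples, which may be technical. Each line is a single line, and the line tests compare these cultures.

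Guidance molecules work as ligand and receptor pairs at the surface of neighbouring cells. Membrane-bound ephrins signal through Eph receptor tyrosine kinases, semaphorins through plexins with neuropilins as co-receptors, SLIT proteins through ROBO receptors, and netrins through DCC and UNC5 receptors. Cadherins and protocadherins join cells by binding their own kind on the next cell, and CELSR and FAT cadherins set planar polarity. In the pancreas such molecules act in budding, branching and the grouping of endocrine cells, and most were first studied in growing axons.

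Levels are given as input counts of a gene over its merged peaks, scaled by TMM and given as CPM, a share of the library's counts. They are compared between samples and never between genes, whose lengths were not used. Tests named edgeR are its quasi-likelihood test with stage and cell line as terms and Benjamini-Hochberg adjustment over 7973 genes, and a gene was called where the adjusted p was below 0.1 and the fitted change reached 2-fold. In bulk RNA, fewer cells of a type and less RNA per cell cannot be told apart.

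Depth was 2652830 to 6879256 counts per input library and 2378881 to 15674899 per IP library, with the MEL1 S4 IP libraries the shallowest. H1 S4 input replicate 2 stood apart. At the peaks of these genes that were enriched in IP at every stage, its input CPM was above that of replicate 1 at 54 of 55 peaks with a median ratio of 1.65, while this median was 0.919 to 1.13 in the other 7 groups. At peaks depleted at every stage it was above replicate 1 at 8 of 42, with a median ratio of 0.811. Whether this input library holds some IP material was not tested, and the H1 S4 input levels and IP over input rest in part on it. The summed CPM of markers of undifferentiated cells (8 of 11 with counts) was 4040 to 5970 in the S0 libraries and 363 to 1970 in all later ones. Hepatic markers, AFP, APOB and VTN of a list of 6, summed to 14800 to 17500 CPM in MEL1 S3, 43300 to 46400 in MEL1 S4 and 1660 to 1750 in MEL1 S6, and to at most 156 in any H1 library. Neuronal markers (4 of 10 with counts) summed to 3510 to 3640 CPM in H1 S6 and 519 to 540 in MEL1 S6. The endocrine list (4 of 12) reached 2610 to 2640 CPM in H1 S6 and 5010 to 5180 in MEL1 S6, and the foregut list (12 of 14) 1150 to 1200 in H1 S3 and 3040 to 3080 in MEL1 S3. The part of these other cell types in the results was not tested.

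More of these genes were called between S0 and S3 than in either later step. At S3, 33 of 85 were called higher (38.8%, against 15% of all tested genes) and 16 lower (18.8%, against 13.8%), and their median log2 change was 0.26 against -0.02 over all genes. At S6 against S0, 40 were higher (47.1%, against 17.5% of all genes) and 7 lower (8.24%, against 13.8%), with a median of 1.03. These 2 comparisons share the S0 libraries. Between S3 and S4, 5 were higher (5.88%, against 1.49%) and none lower (0.351% of all genes; 26 genes had an unadjusted p under 0.05 in either direction, and DESeq2 called 12 higher and 0 lower), and the median log2 change was 0.46 against 0.02 over all genes. Between S4 and S6, 2 were higher (2.35%, against 2.85%) and 4 lower (4.71%, against 2.33%), with a median of 0.10, and DESeq2 called 5 and 7. The 4 lower calls were 1 without either MEL1 S6 replicate and 2 without either MEL1 S4 replicate, and the 2 higher were 5 without H1 S4 replicate 2, 4 without H1 S0 replicate 1 or MEL1 S0 replicate 1 and 1 without MEL1 S6 replicate 2. This comparison shares the S4 libraries with the one before it. Without H1 S4 replicate 2, 1 gene in place of 5 was called at S4 against S3. The 16 lower calls at S3 against S0 were 9 without MEL1 S3 replicate 2 and 7 without the line term, and the 7 at S6 against S0 were 3 without the line term.

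Tested within each line, the counts were as follows. In H1, 35 rose and 6 fell at S3 against S0 (12.5% and 9.38% of all genes), and 15 rose and 1 fell at S4 against S3 (4.3% and 1.88%). In the same line 10 rose and 3 fell from S4 to S6 (4.64% and 3.84%), and 47 rose and 6 fell at S6 against S0 (16.1% and 11.4%). The 15 rises at S4 in H1 were 7 without H1 S4 replicate 2 and 9 without H1 S3 replicate 2. The 10 rises from S4 to S6 were 3 without H1 S4 replicate 1, 16 without H1 S4 replicate 2 and 6 without either H1 S6 replicate. In MEL1, 35 rose and 28 fell at S3 (22.9% and 22% of all genes), 33 rose and 1 fell at S4 (7.8% and 3.21%). There 16 rose and 15 fell at S6 against S4 (8.99% and 8.75%), and 38 rose and 10 fell at S6 against S0 (22.7% and 19.3%). The 16 rises from S4 to S6 in MEL1 were 10 without MEL1 S4 replicate 1. Of the rises at S3, 25 were shared by both lines, 71.4% of those of either line, against 63.1% of H1 and 34.3% of MEL1 rises over all genes. Of the falls, 5 were shared, 83.3% of those of H1 and 17.9% of those of MEL1, against 53.9% and 23% over all genes. Another 6 genes (7.06%, against 1.78% of all genes) were called in opposite directions. These tests within lines were added after the data were seen.

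**Figure D1:**
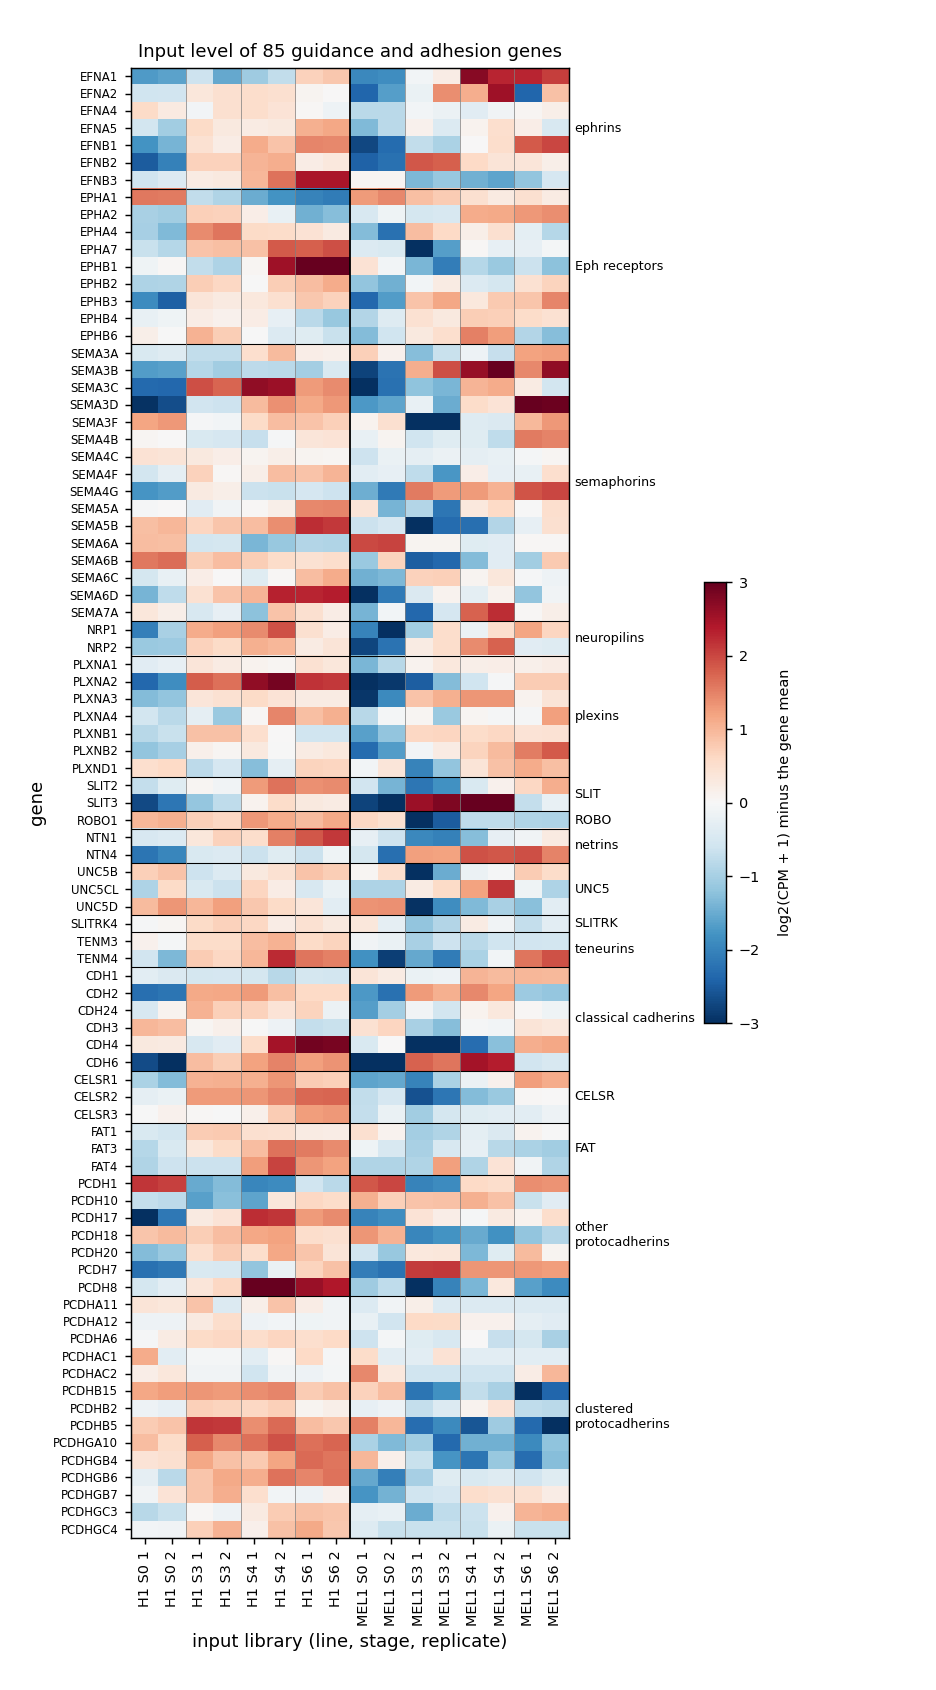
Input level of the 85 genes (rows, by family) in the 16 input libraries (columns, by line, stage and replicate), as log2(CPM + 1) minus the gene's mean, with colours ending at -3 and 3. In both lines more genes are above their mean at S6 than at S0, and MEL1 S3 holds a block of low values that H1 S3 lacks, in CELSR2, ROBO1, UNC5D, PCDHB5 and PCDHB15 among others.

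Among the ligands, 5 of 7 ephrins were called higher and none lower at S3 against S0 (15% and 13.8% of all genes), and 4 were higher at S6 against S0 (17.5% of all genes). EFNB2, the ephrin that marks arterial vessels and signals to EPHB4, was at 51.9 and 72.3 CPM in H1 S0, 54.7 and 62.5 in MEL1 S0, 487 and 485 in H1 S3, 1090 and 1040 in MEL1 S3, 613 and 643 in H1 S4, 457 and 392 in MEL1 S4, 349 and 371 in H1 S6 and 383 and 337 in MEL1 S6. All 12 libraries after S0 were above the 4 of S0. Its log2 fold change was 3.66 ± 0.29 (SE, n = 4 libraries a stage) at S3 against S0 (adjusted p = 1.82e-07, edgeR) and 2.57 ± 0.27 at S6 against S0 (adjusted p = 3.74e-06, edgeR), while its log2 differences of -0.52 from S3 to S4 and -0.56 from S4 to S6 were not called.

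EFNB1 is a ligand of the EphB receptors. Its level was 18.6 and 24.8 CPM in H1 S0, 9.25 and 12.8 in MEL1 S0, 93 and 78.1 in H1 S3, 39.8 and 34.1 in MEL1 S3, 147 and 122 in H1 S4, 68.1 and 97 in MEL1 S4, 187 and 185 in H1 S6 and 244 and 274 in MEL1 S6. Neither S3 nor S6 overlapped with the stage it was compared with. EFNB1 rose by 1.88 ± 0.30 at S3 against S0 (adjusted p = 0.000153, edgeR), by 1.15 ± 0.28 at S6 against S4 (adjusted p = 0.0273, edgeR) and by 3.90 ± 0.32 at S6 against S0 (adjusted p = 2.44e-07, edgeR) on the log2 scale, and its 0.87 at S4 against S3 was not called. Without MEL1 S6 replicate 2 the log2 change at S6 against S4 was 0.94, under the 2-fold limit. Without the line term it had an adjusted p of 0.188. EFNB3, the third transmembrane ephrin, took another course in each line. It was at 391 and 391 CPM in H1 S6 against 46.9 and 53.4 in H1 S0, and at 30.6 and 50 in MEL1 S6 against 74.4 and 74.2 in MEL1 S0. Its change to S6 was thus 2.96 in H1 and -0.89 in MEL1 on the log2 scale, and the difference of -3.85 ± 0.29 was called (adjusted p = 8.89e-09 for the interaction of line and stage, edgeR). The neuronal list was also higher in H1 S6 than in MEL1 S6, and its part in this difference was not tested.

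Of the 9 Eph receptors, 4 were higher and 2 lower at S3 against S0 (15% and 13.8% of all genes), and 4 higher and 1 lower at S6 against S0 (17.5% and 13.8%). EPHA1 was the receptor that fell in both. It was at 228 and 223 CPM in H1 S0, 44.5 and 40 in H1 S3, 26.2 and 20.8 in H1 S4 and 17.9 and 16.8 in H1 S6. In MEL1 it was at 183 and 207, then 142 and 129, 105 and 91.1, and 105 and 89.9. The fall was deeper in H1. At S6 against S0 it was -2.50 ± 0.42 over both lines (adjusted p = 0.00022, edgeR), with -3.70 in H1 and -1.0 in MEL1, a difference of 2.70 ± 0.23 (adjusted p = 3.68e-08 for the interaction, edgeR). The corresponding difference at S3 against S0 was 1.89 ± 0.21 (adjusted p = 8.43e-07, edgeR).

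EPHB2, a receptor of the B-type ephrins, rose in both lines. It was at 35.3 and 35.7 CPM in H1 S0 and 29.2 and 24.4 in MEL1 S0, and at 131 and 147 in H1 S6 and 93.4 and 108 in MEL1 S6. Its log2 fold change was 1.53 ± 0.18 at S3 against S0 (adjusted p = 1.26e-05, edgeR) and 1.94 ± 0.19 at S6 against S0 (adjusted p = 1.13e-06, edgeR). The -0.40 from S3 to S4 and 0.81 from S4 to S6 were not called, and the latter was 1.04 and called without H1 S4 replicate 2 (adjusted p = 0.00144, edgeR). EPHB4, the receptor of EFNB2 in veins, was called in none of the 4 comparisons, with log2 differences of 0.61 (S3 against S0), 0.09 (S4 against S3), -0.53 (S6 against S4) and 0.17 (S6 against S0). The change of EPHB4 from S0 to S6 was -0.79 in H1 and 1.12 in MEL1 (interaction 1.92 ± 0.25, adjusted p = 1.07e-05, edgeR).

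EPHA2, a receptor of epithelial cells, was not called in any of these comparisons either, with log2 differences of 1.09, 0.14, -0.30 and 0.93 in the same order. It was called at S3 against S0 without MEL1 S3 replicate 1 or 2 (adjusted p of 0.0374 and 0.0396), with DESeq2 (0.0732) or with its highest peak alone (0.0631), and at S6 against S0 without H1 S6 replicate 1 or 2 (0.0615 and 0.0738). EPHA2 was at 181 and 178 CPM in H1 S3 and 39.6 and 44.8 in H1 S6, and at 76.1 and 78.1 in MEL1 S3 and 274 and 291 in MEL1 S6, so that the order of the 2 stages was opposite. The change at S6 against S0 was -0.37 in H1 and 1.65 in MEL1, a difference of 2.02 ± 0.23 (adjusted p = 1.55e-06 for the interaction, edgeR). EPHB1 was called lower at S3 against S0 (-1.96 ± 0.79, adjusted p = 0.0604, edgeR), a call that was lost without any one of 5 libraries, H1 S3 replicates 1 and 2, MEL1 S0 replicates 1 and 2 and MEL1 S3 replicate 2, with adjusted p of 0.114 to 0.193, without the line term (0.282) or with its highest peak alone (0.159). In H1 S4 EPHB1 was at 10.4 CPM in replicate 1 and 62.4 in replicate 2, the library that stood apart. EPHB6, a receptor without kinase activity, fell by 1.67 ± 0.46 at S6 against S4 (adjusted p = 0.0428, edgeR), from 47.9 and 39.5 to 8.22 and 6.05 CPM in MEL1 and from 16 and 11.8 to 12.3 and 9.7 in H1. That call was lost without either MEL1 S4 replicate or either MEL1 S6 replicate (adjusted p of 0.121 to 0.143).

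At S3 against S0, 6 of 16 semaphorins were called higher and 4 lower (15% and 13.8% of all genes). At S6 against S0, 8 were higher and 1, SEMA6A, lower (17.5% and 13.8%). SEMA6A, a transmembrane semaphorin that binds plexin A proteins, was at 1080 and 1050 CPM in H1 S0 and 2230 and 2300 in MEL1 S0, and at 387 and 389 in H1 S3, 599 and 603 in MEL1 S3, 218 and 258 in H1 S4, 438 and 446 in MEL1 S4, 308 and 301 in H1 S6 and 581 and 577 in MEL1 S6. Every later library was below every S0 library. Its log2 fold change was -1.68 ± 0.14 at S3 against S0 (adjusted p = 2.99e-07, edgeR) and -1.89 ± 0.14 at S6 against S0 (adjusted p = 7.4e-08, edgeR), and its differences of -0.58 from S3 to S4 and 0.37 from S4 to S6 were under 2-fold.

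Of the secreted class 3 semaphorins, SEMA3B, SEMA3C and SEMA3D were called higher at both S3 and S6 against S0. SEMA3B was at 8.7 and 9.09 CPM in H1 S0, 16 and 14 in H1 S3 and 14.4 and 21.6 in H1 S6. In MEL1 it was at 3.5 and 5.66 at S0, 65.3 and 118 at S3, 188 and 356 at S4 and 83.7 and 194 at S6. The mean of SEMA3B was highest in MEL1 S4, which also had the highest hepatic marker sum. SEMA3C, a ligand of neuropilins, was at 4.59 and 4.55 CPM in H1 S0, 106 and 93.7 in H1 S3, 178 and 166 in H1 S4 and 67.1 and 74.8 in H1 S6. In MEL1 it was at 0.823 and 5.01, then 11.3 and 9.93, 55.9 and 60.1, and 32.5 and 18.2. The level peaked at S4 in both lines. SEMA3C rose by 3.39 ± 0.49 at S3 against S0 (adjusted p = 7.09e-05, edgeR) and by 3.56 ± 0.49 at S6 against S0 (adjusted p = 3.59e-05, edgeR) on the log2 scale. Its fall of 1.24 ± 0.41 at S6 against S4 (adjusted p = 0.0894, edgeR) was lost without any one of 9 libraries, H1 S3 replicate 2 and each of the 8 libraries compared (adjusted p of 0.102 to 0.211), without the line term (0.471) or with its highest peak alone (0.109). SEMA3D was at 0.725 and 1.14 CPM in H1 S0, 3.08 and 3.48 in MEL1 S0, 28.6 and 32.2 in H1 S6 and 122 and 103 in MEL1 S6. It rose by 4.98 ± 0.55 at S6 against S0 (adjusted p = 5.31e-06, edgeR). At S4 against S3 SEMA3D was called at 1.73 ± 0.47 (adjusted p = 0.0927, edgeR). This call was lost without any one of 10 libraries, with an adjusted p of 0.246 without H1 S4 replicate 2 and of 0.101 to 0.21 without H1 S0 replicate 2, H1 S3 replicates 1 and 2, H1 S4 replicate 1, H1 S6 replicate 2, MEL1 S0 replicate 2, MEL1 S3 replicates 1 and 2 or MEL1 S6 replicate 2. It was also lost without the line term (0.316) or with its highest peak alone (0.107).

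SEMA3F, a ligand of NRP2, was lower at S3 than at S0 by 2.20 ± 0.57 (adjusted p = 0.0064, edgeR). It was at 102 and 110 CPM in H1 S0 and 43.2 and 41.6 in H1 S3, and at 47.9 and 61.8 in MEL1 S0 and 1.5 and 3.61 in MEL1 S3. Both lines moved the same way, MEL1 further (-4.38 against -1.32, interaction -3.06 ± 0.36, adjusted p = 1.51e-06, edgeR). By S6 SEMA3F was at 73.4 to 111 CPM in both lines. SEMA3A, the classic repellent of axons, was called in none of the comparisons, with log2 differences of -0.91, 1.19, 0.44 and 0.72 in the order used for EPHB4. It was called lower at S3 against S0 without H1 S0 replicate 1 or 2 (adjusted p of 0.0481 and 0.0523), and higher at S4 against S3 without MEL1 S4 replicate 2 (0.0887), with only the 8 libraries compared (0.0346) or with DESeq2 (0.0536). SEMA4B was the rise at S6 against S4 with the smallest adjusted p, from 47.7 and 75.4 to 99.6 and 103 CPM in H1 and from 60.1 and 45 to 229 and 217 in MEL1. Its log2 fold change was 1.45 ± 0.26 (adjusted p = 0.00433, edgeR). SEMA4G, another transmembrane class 4 semaphorin, rose to S6 by 3.76 in MEL1 and by 1.2 in H1, and the difference of 2.56 ± 0.26 was called (adjusted p = 5.14e-07, edgeR).

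Of the receptors of the semaphorins, both neuropilins and 4 of 7 plexins were called higher at S3 against S0 and PLXND1 lower (15% and 13.8% of all genes). At S6 against S0 both neuropilins and 5 plexins were higher and none lower (17.5% and 13.8%). NRP1, a co-receptor for SEMA3A and VEGF, was low at S0, at 0.966 and 3.18 CPM in H1 and 1.03 and 0 in MEL1, and was at 16.8 and 18.3 in H1 S3 and 3 and 10.8 in MEL1 S3. The lowest S3 library was just under the highest S0 library. NRP1 rose by 3.22 ± 0.64 (adjusted p = 0.00104, edgeR) at S3 and by 3.42 ± 0.66 (adjusted p = 0.000681, edgeR) at S6 against S0, with 0.46 from S3 to S4 and -0.25 from S4 to S6 not called. NRP2 was at 25.8 and 26.1 CPM in H1 S0, 7.61 and 11.5 in MEL1 S0, 92.8 and 85.9 in H1 S3, 68.1 and 82.6 in MEL1 S3, 120 and 114 in H1 S4, 155 and 197 in MEL1 S4, 68.2 and 75 in H1 S6 and 44.8 and 43.2 in MEL1 S6. The S4 libraries were above all S6 libraries. NRP2 rose by 2.28 ± 0.31 at S3 (adjusted p = 4.4e-05, edgeR), fell by 1.42 ± 0.30 from S4 to S6 (adjusted p = 0.0126, edgeR), stayed 1.74 ± 0.31 above S0 at S6 (adjusted p = 0.000363, edgeR), and its 0.88 at S4 against S3 was not called.

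PLXNA2, a receptor for class 3 and class 6 semaphorins, was at 3.62 and 5.46 CPM in H1 S0 and 1.44 and 2.18 in MEL1 S0, at 82.4 and 72.9 in H1 S3 and 3.25 and 8.57 in MEL1 S3, and at 105 and 101 in H1 S6 and 38.8 and 39.1 in MEL1 S6. H1 was above MEL1 at every stage. The rise was 3.20 ± 0.50 at S3 (adjusted p = 0.000141, edgeR) and 4.63 ± 0.51 at S6 (adjusted p = 4.93e-06, edgeR), and over all stages MEL1 was 2.48 ± 0.33 lower than H1 on the log2 scale (adjusted p = 5.03e-05, edgeR). PLXNB2 is a receptor for class 4 semaphorins. It was at 349 and 367 CPM in H1 S6 and 863 and 1060 in MEL1 S6, from 129 and 148 in H1 S0 and 59.2 and 91.8 in MEL1 S0. It rose by 1.53 ± 0.35 at S3 (adjusted p = 0.00278, edgeR) and 2.51 ± 0.37 at S6 (adjusted p = 6.83e-05, edgeR) against S0, with 0.38 and 0.60 in the steps between not called, and its change to S6 was 2.30 ± 0.26 larger in MEL1 than in H1 (adjusted p = 1.56e-06, edgeR).

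**Figure D2:**
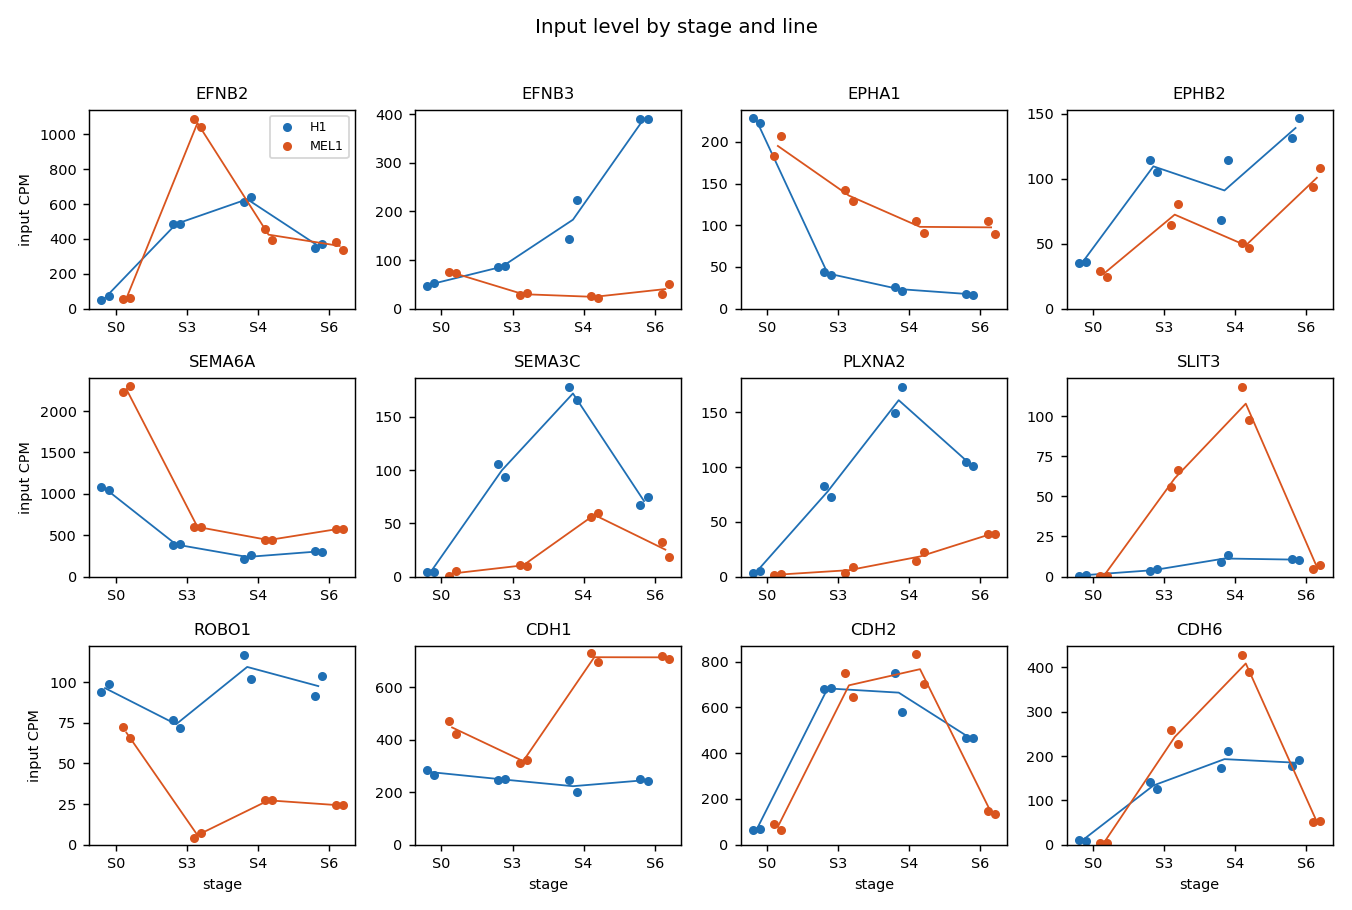
Input CPM of 12 genes by stage, with a point for each library and a line through the mean of the 2 replicates of H1 (blue) and MEL1 (orange), each axis starting at 0. EFNB2 and CDH2 rise from S0 to S3 in both lines, SEMA6A falls in both, and EFNB3, ROBO1 and CDH1 separate the lines.

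SLIT ligands were called higher at S6, 2 of 2 (17.5% of all genes). SLIT3 was at 0.483 and 1.14 CPM in H1 S0 and 0.411 and 0.218 in MEL1 S0, where MEL1 had 3 counts in all. It was at 3.35 and 4.74 in H1 S3 and 56.1 and 66.3 in MEL1 S3, 9.38 and 13.2 in H1 S4 and 118 and 97.4 in MEL1 S4, and 10.8 and 10.4 in H1 S6 and 4.86 and 7.26 in MEL1 S6. High values were thus held by MEL1 S3 and S4, the libraries with the highest hepatic marker sums. The ratio of S3 to S0 in MEL1 was 194 with a 95% counting interval of 65.9 to 943, and edgeR called the gene at S3 against S0 (adjusted p = 0.000872) and at S6 against S0 (adjusted p = 0.00294). The differences of 0.94 from S3 to S4 and -1.73 from S4 to S6 were not called. The first was called with only the 8 libraries compared (1.06, adjusted p = 0.0151) and the second with DESeq2 (-1.91, adjusted p = 0.0818). SLIT2, its paralogue, was at 38.6 and 34.6 CPM in H1 S3, 92.3 and 117 in H1 S4, 7.51 and 9.93 in MEL1 S3 and 26.9 and 40.6 in MEL1 S4. It rose by 1.66 ± 0.33 at S4 against S3 (adjusted p = 0.02, edgeR), and this was the call of that step that was kept without H1 S4 replicate 2. Without the line term it was lost (adjusted p = 0.342). It also rose by 1.91 ± 0.33 at S6 against S0 (adjusted p = 0.000294, edgeR), with -0.24 at S3 against S0 and 0.48 at S6 against S4 not called.

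ROBO1 is the receptor of SLIT proteins. It was at 94 and 98.9 CPM in H1 S0, 76.7 and 71.7 in H1 S3, 117 and 102 in H1 S4 and 91.4 and 104 in H1 S6, and at 72.6 and 65.5, 4.25 and 7.45, 27.3 and 27.3, and 24.3 and 24.2 in MEL1. The drop at S3 was thus in MEL1. Over both lines it was -1.84 ± 0.44 (adjusted p = 0.00383, edgeR), with -0.38 in H1 and -3.54 in MEL1, a difference of -3.16 ± 0.28 (adjusted p = 2.65e-08, edgeR). Its 1.10 at S4 against S3, -0.17 at S6 against S4 and -0.91 at S6 against S0 were not called, the last being called without H1 S0 replicate 1 or 2 (adjusted p of 0.0305 and 0.0341) or with its highest peak alone (0.08). The fall at S3 was lost without the line term (-1.04, adjusted p = 0.344), and the rise at S4 was called with only the 8 libraries compared (1.20, adjusted p = 0.0445). ROBO2 had no merged peak and was not analysed here.

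Both netrins passed the test as higher at S6 over both lines (17.5% of all genes), NTN1 with its rise in H1. NTN4, a laminin-like netrin, was at 1.21 and 1.59 CPM in H1 S0 and 5.96 and 1.09 in MEL1 S0, 6.31 and 6.59 in H1 S3 and 22.5 and 22.1 in MEL1 S3, and 5.5 and 8.16 in H1 S6 and 37.3 and 27.4 in MEL1 S6. It rose by 2.49 ± 0.41 at S3 (adjusted p = 0.000213, edgeR) and 2.81 ± 0.41 at S6 (adjusted p = 6.56e-05, edgeR) against S0, and was 2.05 ± 0.27 higher in MEL1 than in H1 (adjusted p = 4.63e-05, edgeR). The steps from S3 to S4 (0.36) and S4 to S6 (-0.03) were not called. NTN1, the founding netrin, rose by 1.47 ± 0.49 at S6 against S0 (adjusted p = 0.0249, edgeR), with -0.38, 0.96 and 0.88 in the other 3 comparisons not called. It was at 5.8 and 6.14 CPM in H1 S0 and 33.6 and 40.4 in H1 S6, and at 6.99 and 5.22 in MEL1 S0 and 7.84 and 10.5 in MEL1 S6. The change to S6 was 2.62 in H1 and 0.58 in MEL1, where it was not called (interaction -2.05 ± 0.56, adjusted p = 0.00975, edgeR). The call of NTN1 over both lines was lost when only its highest peak was counted (0.97, adjusted p = 0.218). UNC5B, a repulsive netrin receptor, dipped at S3. It was at 14.4 to 25.7 CPM in the S0 libraries, 0.751 to 10.1 at S3, 12.2 to 19.5 at S4 and 20.6 to 25.9 at S6, with no overlap between S3 and the stages on either side. It fell by 1.91 ± 0.38 at S3 (adjusted p = 0.000982, edgeR) and rose by 1.48 ± 0.38 at S4 (adjusted p = 0.0679, edgeR), while 0.63 at S6 against S4 and 0.20 at S6 against S0 were not called. The rise at S4 was lost without any one of 5 libraries, H1 S3 replicate 1, H1 S4 replicate 2, MEL1 S3 replicate 2 and MEL1 S4 replicates 1 and 2 (adjusted p of 0.108 to 0.157), and without the line term (0.392). UNC5D, another netrin receptor, fell by 1.86 ± 0.71 at S3 (adjusted p = 0.0486, edgeR) and by 2.05 ± 0.71 at S6 against S0 (adjusted p = 0.0291, edgeR). At S3 its levels were 14.6 and 17.3 CPM in H1 against 0 and 1.13 in MEL1, with H1 changed by -0.04 from S0. The call was lost without MEL1 S0 replicate 2 or either MEL1 S3 replicate (adjusted p of 0.103 to 0.156). It was also lost with only the 8 libraries compared (0.157) and without the line term (0.372), where the call at S6 was lost too (0.168). The teneurin TENM4, an adhesion molecule of synapses, rose by 3.96 ± 0.63 at S6 against S0 (adjusted p = 0.000144, edgeR), from 5.8 and 2.96 to 29.8 and 27.6 CPM in H1 and from 1.85 and 0.435 to 29.9 and 36.7 in MEL1.

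Among the 6 classical cadherins, 3 were higher and 2 lower at S3 against S0 (15% and 13.8% of all genes), and 4 higher and none lower at S6 against S0 (17.5% and 13.8%). CDH2 (N-cadherin) was at 63.5 and 67.1 CPM in H1 S0 and 91.9 and 64.9 in MEL1 S0, 680 and 685 in H1 S3 and 748 and 644 in MEL1 S3, 749 and 579 in H1 S4 and 831 and 702 in MEL1 S4, and 468 and 465 in H1 S6 and 145 and 136 in MEL1 S6. All S3 and S4 libraries were above all others. CDH2 rose by 3.25 ± 0.35 at S3 (adjusted p = 4.69e-06, edgeR), fell by 1.32 ± 0.33 from S4 to S6 (adjusted p = 0.0304, edgeR), and was 1.99 ± 0.34 above S0 at S6 (adjusted p = 0.000289, edgeR), with 0.06 at S4 against S3 not called. The fall was lost without MEL1 S6 replicate 1 or 2 (adjusted p of 0.119 and 0.115) or without the line term (0.107), and was -0.51 in H1 and -2.45 in MEL1.

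CDH1 (E-cadherin), the cadherin of epithelia and of undifferentiated stem cells, was called at no step over both lines, with log2 differences of -0.29, 0.49, 0.06 and 0.26. It was at 199 to 286 CPM in all 8 H1 libraries. In MEL1 it was at 471 and 421 at S0, 312 and 324 at S3, 731 and 696 at S4 and 719 and 707 at S6. MEL1 was above H1 at each of the 4 stages without overlap, by 1.07 ± 0.17 over all (adjusted p = 0.00021, edgeR). CDH6, a cadherin of developing kidney and nervous system, rose by 4.97 ± 0.58 at S3 (adjusted p = 1.01e-05, edgeR) and 4.21 ± 0.56 at S6 against S0 (adjusted p = 2.87e-05, edgeR). Its level was 10.9 and 8.19 CPM in H1 S0, 3.5 and 2.83 in MEL1 S0, 142 and 125 in H1 S3, 258 and 228 in MEL1 S3, 178 and 192 in H1 S6 and 50 and 53.2 in MEL1 S6. CDH4 (R-cadherin) fell at S3 and rose at S4. It was at 8.28 and 9.27 CPM in H1 S3 and at 0.25 and 0.226 in MEL1 S3, where 2 counts in all remained of 96 at S0, a ratio of 0.0234 (95% counting interval 0.00279 to 0.0868). The fall had an adjusted p of 0.0164 (edgeR), and of 0.313 without the line term. In MEL1 S4 CDH4 was at 1.68 and 4.43 CPM, 16 counts in all, a ratio to S3 of 13.2 (95% counting interval 3.11 to 119). The rise of 2.39 ± 0.65 at S4 over both lines (adjusted p = 0.0933, edgeR) rested in part on H1 S4 replicate 2, at 72.7 CPM against 18 in replicate 1. Without that library the rise was 1.28 (adjusted p = 0.41, edgeR). It was also lost without any one of H1 S3 replicates 1 and 2, H1 S6 replicates 1 and 2, MEL1 S3 replicates 1 and 2, MEL1 S4 replicate 2 and MEL1 S6 replicates 1 and 2 (adjusted p of 0.119 to 0.234), without the line term (0.557) or with its highest peak alone (0.227).

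Of the CELSR and FAT cadherins, which carry planar polarity signals, 2 of 3 CELSR and 2 of 3 FAT genes changed more negatively in MEL1 than in H1 from S0 to S3 (17.5% of all genes). CELSR2 was at 137 and 145 CPM in H1 S0 and 404 and 403 in H1 S3, and at 100 and 117 in MEL1 S0 and 26.5 and 36.3 in MEL1 S3. It rose by 1.51 in H1 and fell by 1.78 in MEL1, an interaction of -3.30 ± 0.21 (adjusted p = 2.53e-10, edgeR). Over both lines its log2 differences were -0.15, 0.48 and 0.76 in the first 3 comparisons, none called, and 1.09 ± 0.45 at S6 against S0 (adjusted p = 0.0617, edgeR), a call that was lost without either H1 S0 replicate or either MEL1 S6 replicate (adjusted p of 0.127 to 0.182), or without the line term (0.171). FAT1 did the same, at 443 and 454 CPM in H1 S3 from 192 and 179, and at 128 and 140 in MEL1 S3 from 366 and 282. The interaction was -2.54 ± 0.19 (adjusted p = 3.3e-09, edgeR), and no change over both lines was called (-0.01, 0.03, 0.09 and 0.11). CELSR1 rose by 1.37 ± 0.43 at S3 (adjusted p = 0.0204, edgeR) and 2.45 ± 0.44 at S6 against S0 (adjusted p = 0.000387, edgeR), with 0.59 and 0.50 between, not called. It was at 58.2 and 45.2 CPM in H1 S0, 231 and 235 in H1 S3 and 190 and 185 in H1 S6, and at 37 and 37.9 in MEL1 S0, 27.5 and 58 in MEL1 S3 and 268 and 246 in MEL1 S6. The MEL1 S3 libraries overlapped with S0, and the change at S3 was 2.17 in H1 and 0.20 in MEL1 (interaction -1.97 ± 0.32, adjusted p = 6.17e-05, edgeR). FAT4 was at 1 count in all at S0 and 38 at S6, and 36 of the 38 were in H1, where the ratio was 30.2 with a 95% counting interval of 5.09 to 1230 (adjusted p over both lines = 0.0322, edgeR).

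Of the 7 protocadherins outside the clusters, 3 rose and 2 fell at S3 (15% and 13.8% of all genes), and 3 rose and 2 fell at S6 against S0 (17.5% and 13.8%). PCDH1, a protocadherin of epithelial junctions, was at 321 and 299 CPM in H1 S0 and 265 and 290 in MEL1 S0, 24.6 and 28.6 in H1 S3 and 17 and 18.7 in MEL1 S3, 17.8 and 18.7 in H1 S4 and 109 and 103 in MEL1 S4, and 46.9 and 40.6 in H1 S6 and 191 and 183 in MEL1 S6. The S3 levels were the lowest or near the lowest in both lines, and MEL1 came back further. PCDH1 fell by 3.67 ± 0.54 at S3 (adjusted p = 7.78e-05, edgeR) and by 1.70 ± 0.51 at S6 against S0 (adjusted p = 0.0135, edgeR), its 1.03 from S3 to S4 and 0.95 from S4 to S6 were not called. The latter was 1.03 and called with only the 8 libraries compared (adjusted p = 0.00266). The fall of PCDH1 to S6 was -2.82 in H1 and -0.57 in MEL1 (interaction 2.25 ± 0.20, adjusted p = 5.85e-08, edgeR). PCDH7 rose by 3.09 ± 0.45 at S3 (adjusted p = 7.03e-05, edgeR) and 3.22 ± 0.44 at S6 against S0 (adjusted p = 3.34e-05, edgeR), with -0.56 and 0.69 in between not called. It was at 17.2 to 19.3 CPM in all S0 libraries, 61.5 and 60.6 in H1 S3 and 362 and 368 in MEL1 S3. PCDH8, a protocadherin of paraxial mesoderm and synapses, was at 121 and 111 CPM in H1 S4 and at 16.3 or less in all H1 S0 and S3 libraries, and at 3.36 and 12.9 in MEL1 S4. Its rise at S4 was 2.92 ± 0.68 (adjusted p = 0.0478, edgeR), and was lost without H1 S3 replicate 1 or 2, H1 S4 replicate 2, MEL1 S3 replicate 1 or MEL1 S4 replicate 2 (adjusted p of 0.103 to 0.124), or without the line term (0.55). PCDH18 fell by 1.65 ± 0.49 at S6 against S0 (adjusted p = 0.0128, edgeR; 0.271 without the line term). It went from 110 and 118 CPM at S0 to 88.4 and 85.8 at S6 in H1 and from 154 and 126 to 26.1 and 32.7 in MEL1, log2 changes of -0.39, not called, and -2.25 (interaction -1.86 ± 0.24, adjusted p = 6.3e-06, edgeR). At S3 it was at 102 and 116 CPM in H1 S3 and 15 and 16.9 in MEL1 S3 (interaction at S3 -3.07 ± 0.24, adjusted p = 4.24e-09, edgeR).

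The clustered protocadherins are encoded in 3 tandem arrays on chromosome 5, PCDHA, PCDHB and PCDHG, where each first exon has its own promoter and a cell uses a few of them. The PCDHA and PCDHG genes splice onto shared last exons, so that reads there could be split between genes by the authors' counting, and values of these genes are uncertain to that extent. All 14 had a promoter in RefSeq (GRCh38.p14; 68 of the 85 genes in all), and the 30 bases around the short shared element before the start are shown for the genes described here, so that genes called and not called between the lines can be set side by side. Capitals mark TGTCGCT in PCDHA, TGGCGCTGC in PCDHB and CCGCTGT in PCDHG genes, motifs chosen after the sequences were seen. On both strands, TGTCGCT was in 1.76%, TGGCGCTGC in 0.641% and CCGCTGT in 3.89% of 35116 promoters of the same length.
PCDHA6, chr5:140827897-140827926, + strand: tggagccgcatgaTGTCGCTgtctaccatg
PCDHA12, chr5:140875244-140875273, + strand: atcagtcacatgaTGTCGCTctacactcag
PCDHB2, chr5:141094544-141094573, + strand: aagagacgcggggTGGCGCTGCagccttag
PCDHB5, chr5:141135179-141135208, + strand: ttaggacgcctggTGGCGCTGCaggctaag
PCDHB15, chr5:141245314-141245343, + strand: agacaacgcatggTGGCGCTGCaggctaag
PCDHGB4, chr5:141387619-141387648, + strand: ctgactctgggcgCCGCTGTtggccaaagt
PCDHGB6, chr5:141407926-141407955, + strand: gagcctctgggcgCCGCTGTcggccagtgc
PCDHGA10, chr5:141412933-141412962, + strand: aggactctgagcgCCGCTGTtcacctacta
PCDHGC3, chr5:141475882-141475911, + strand: gggactctgtgtgCCGCTGTcggccaatga

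The element was found in 3 of 5 PCDHA, 3 of 3 PCDHB and 5 of 6 PCDHG genes with counts, and in 10 of 13, 11 of 14 and 15 of 25 RefSeq promoters of the 3 arrays. PCDHB15, called lower in MEL1 over all stages, and PCDHB2, not called in that test, both hold it. The change of PCDHB2 from S0 to S3 did differ between the lines (interaction -1.27, adjusted p = 0.000296, edgeR). A match is a description of the sequence only.

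At S3 against S0, 1 of these 14 genes was called higher (7.14%, against 15% of all genes) and 2 lower (14.3%, against 13.8%), no gene was called in either step from S3 to S4 and from S4 to S6 (2 of 14 had an unadjusted p under 0.05 in each), and at S6 against S0 2 were higher (14.3%, against 17.5%) and 2 lower (14.3%, against 13.8%). Between the lines, none of the 14 was higher in MEL1 than in H1 over all stages (8.85% of all genes) and 7 were lower (50%, against 10.2%). PCDHGA10 was at 14.8 to 39.5 CPM in the 8 H1 libraries and 1.13 to 4.52 in the 8 MEL1 libraries, with no overlap, a log2 difference of -3.19 ± 0.28 (adjusted p = 1.54e-06, edgeR). PCDHGB6 was at 11.6 to 67.3 CPM in H1 and 4.35 to 16.2 in MEL1, lower in MEL1 at each stage (-1.77 ± 0.17, adjusted p = 2.91e-06, edgeR), and it was above S0 at S6 in both lines, by 1.82 ± 0.24 (adjusted p = 3e-05, edgeR).

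PCDHB5 and PCDHB15 were closer between the lines at S0 than later. PCDHB5 was at 30 and 31.8 CPM in H1 S0 and 50.6 and 35.3 in MEL1 S0, 79 and 77.7 in H1 S3 and 2.75 and 3.84 in MEL1 S3, 47.2 and 58 in H1 S4 and 2.1 and 7.75 in MEL1 S4, and 33.4 and 31.1 in H1 S6 and 2.61 and 1.21 in MEL1 S6. The MEL1 levels stayed low to the end. Its change at S3 was 1.34 in H1 and -3.68 in MEL1, an interaction of -5.03 ± 0.44 (adjusted p = 2.24e-08, edgeR). PCDHB15 was at 24.6 and 26.1 CPM in H1 S0 and 17.3 and 20.7 in MEL1 S0, and at 18.5 and 20.1 in H1 S6 and 0.373 and 1.21 in MEL1 S6. Called lower at S6 over both lines were PCDHB5 (-2.63 ± 0.82, adjusted p = 0.0173, edgeR) and PCDHB15 (-2.14 ± 0.60, adjusted p = 0.00934, edgeR), and for both the fall lay in MEL1 (-4.45 and -4.56, against 0.06 and -0.40 in H1). Without the cell line in the model neither was called (adjusted p of 0.489 and 0.426), nor was PCDHB5 with only the 8 libraries compared (0.111). PCDHB2, their neighbour, was at 42.3 to 45.4 CPM in all 4 S0 libraries and at 83.4 and 80.7 in H1 S3 and 30.5 and 37.5 in MEL1 S3, and was not called at any stage over both lines. Its change at S3 was 0.90 in H1 and -0.37 in MEL1, and the difference was called (interaction -1.27, adjusted p = 0.000296, edgeR). PCDHAC2 had 26 counts at S0 and 4 at S3, all 4 in H1. It was called lower (adjusted p = 0.0483, edgeR), and the call was lost without MEL1 S0 replicate 1 or either MEL1 S3 replicate (adjusted p of 0.135 to 0.161).

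**Figure D3:**
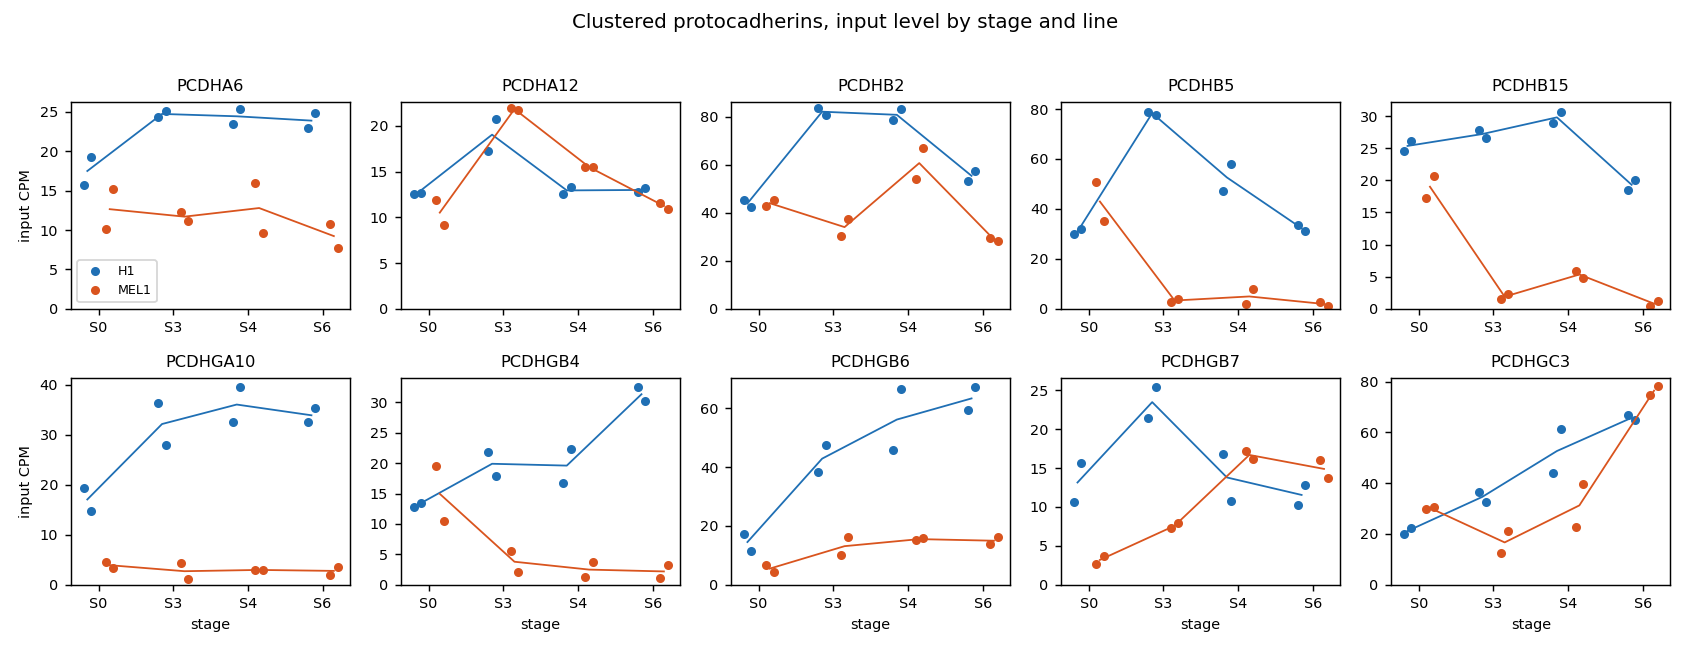
Input CPM of 10 clustered protocadherins by stage, with a point for each library and a line through the mean of the 2 replicates of H1 (blue) and MEL1 (orange), each axis starting at 0. PCDHGA10, PCDHGB6 and PCDHB15 are lower in MEL1 throughout, PCDHB5 and PCDHGB4 are lower in MEL1 from S3 on, and PCDHA12 lies close in both lines.

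Over all families, MEL1 was higher than H1 in 9 of the 85 genes (10.6%, against 8.85% of all genes) and lower in 28 (32.9%, against 10.2%), and the median gene was 0.62 lower on the log2 scale (log2 difference -0.62). Besides those named above, TENM3, a teneurin, was at 234 CPM in H1 and 108 in MEL1 on average, without overlap at any of the 4 stages (-1.11 ± 0.17, adjusted p = 0.000171, edgeR). SEMA5B, a transmembrane semaphorin, was at 32.2 CPM in H1 and 6.38 in MEL1, again without overlap at any stage (-2.57 ± 0.38, adjusted p = 0.000123, edgeR). The change from S0 to S3 differed between the lines in 45 of 85 genes, more positive in MEL1 in 13 (15.3%, against 16.5% of all genes) and more negative in 32 (37.6%, against 17.5%). The change from S0 to S6 was more positive in MEL1 in 18 (against 13.7% of all genes) and more negative in 18 (21.2%, against 11.4%). Sums of marker lists also differed between the lines. Markers of undifferentiated cells were at 1670 to 1740 CPM in H1 S3 and 363 to 371 in MEL1 S3, and endocrine markers at 1810 to 1980 and 375 to 444. The endocrine sum at S3 was nearly all INS-IGF2, at 1960 and 1790 CPM in H1 S3 and 368 and 435 in MEL1 S3. CHGA was at 18.9 and 22.2 CPM in H1 S3, below its 233 and 243 in H1 S0, and at 4.25 and 1.81 in MEL1 S3. Duct markers were at 910 to 988 CPM in H1 S3 and 4420 to 4520 in MEL1 S3, and at 1270 to 1310 and 8250 to 9060 at S6. The duct sum at S3 was nearly all KRT19, at 969 and 894 CPM in H1 S3 and 4410 and 4510 in MEL1 S3. SPP1 went the other way at S3, with 17.1 and 15.2 CPM in H1 and 0.751 and 2.48 in MEL1, and KRT7 was at most 2 CPM. Mesenchymal markers were at 70.6 to 95.7 CPM in H1 S4 and 723 to 791 in MEL1 S4. These sums, the foregut sum at S3, the hepatic sum of MEL1 and the neuronal sum of H1 S6 moved with the differences between the lines, and their part was not tested.

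**Figure D4:**
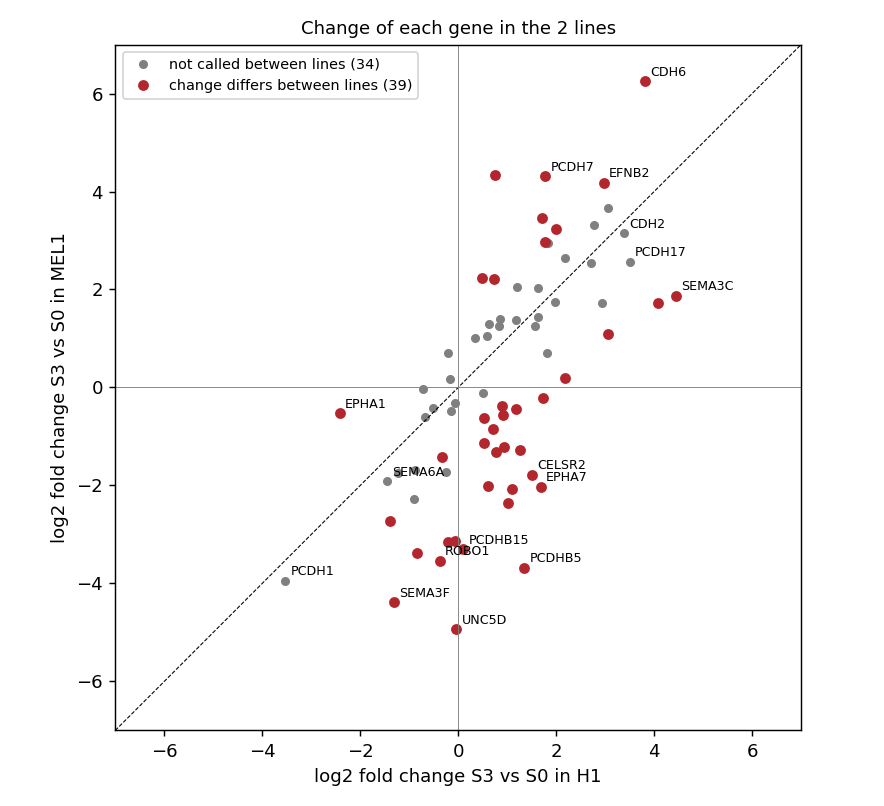
Log2 fold change from S0 to S3 in H1 (horizontal) and MEL1 (vertical) for 73 genes, each point a gene, with the 39 whose change differed between the lines in red and the dashed line marking equal change. The 12 genes with at most 3 counts in a group are left out. CELSR2, PCDHB5 and EPHA7 lie in the lower right, up in H1 and down in MEL1, and CDH2, SEMA6A and PCDH1 lie near the line.

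A list of 50 partners and effectors of these molecules (catenins, DCC and RGM proteins, FLRT proteins, collapsin response mediators, L1-type adhesion molecules, Rnd GTPases, glypicans, neurexins and neuroligins) had 32 genes with counts. Of these 32, 6 rose and 7 fell from S0 to S3 (15% and 13.8% of all genes), 3 rose and none fell from S3 to S4 (1.49% and 0.351%), 3 rose and 3 fell from S4 to S6 (2.85% and 2.33%), and 11 rose and 1 fell from S0 to S6 (17.5% and 13.8%). FLRT3, a ligand of UNC5 receptors, rose by 5.69 ± 0.45 at S3 (adjusted p = 1.8e-07, edgeR), fell by 1.88 ± 0.37 from S4 to S6 (adjusted p = 0.00772, edgeR) and stood 3.62 ± 0.41 above S0 at S6 (adjusted p = 6.89e-06, edgeR). It was at 7.25 and 9.55 CPM in H1 S0, 205 and 202 in H1 S3 and 158 and 163 in H1 S4. In MEL1 it went from 9.05 and 8.05 to 961 and 1140, then 1020 and 951. MEL1 S3 and S4 were also the libraries with the highest hepatic marker sums. L1CAM, a neural adhesion molecule, fell by 2.69 ± 0.43 at S3 (adjusted p = 0.000164, edgeR), then rose by 2.53 ± 0.43 at S4 (adjusted p = 0.00804, edgeR) and by 2.66 ± 0.39 at S6 (adjusted p = 0.00106, edgeR). The proteoglycan GPC3 rose by 3.04 and the neurexin gene NRXN2 fell by 2.54 at S3 on the log2 scale, and NRXN2 rose by 2.59 at S4. GPC3 was at 380 and 375 CPM in H1 S3 and 2070 and 2240 in MEL1 S3. NRXN2 was at 0 in both MEL1 S3 libraries, and at 9.14 and 29.5 CPM in H1 S4 replicates 1 and 2. At S6 against S4, DPYSL2, a mediator of semaphorin signals, rose by 1.61, and the GTPase gene RND1 fell by 3.43. That fall lay in MEL1, where RND1 was at 669 and 650 CPM at S4 and 9.34 and 8.47 at S6, against 13.8 and 15.2, then 11.9 and 11.2 in H1. RND1 was also high in MEL1 S3 (340 and 285 CPM), so its high values were in the libraries with the highest hepatic marker sums. At S6 against S0, DPYSL5 rose by 3.16 and GPC4 fell by 2.28. The catenins CTNND1 (-0.50) and JUP (-0.30) at S4 against S3, and NLGN1 (-1.32) at S6 against S0, had the lowest remaining differences and were not called. Between the lines, 4 partners were higher in MEL1 (8.85% of all genes), RND1 (2.53) and FLRT3 (1.73) with the largest differences, and 12 lower (10.2% of all genes), the netrin-binding DRAXIN (-3.32) and NRCAM (-2.47) at the head.

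Methylation was read from the ratio of IP to input in each merged peak, relative to the trimmed mean peak, so that a log2 ratio of 0 stands for the average peak and not for the absence of m6A. A peak was called enriched where this ratio was at least 2-fold at an adjusted p under 0.1 (edgeR, over 26104 peaks). Peaks are named by the position listed for them in the gene, since their place on the chromosome was not used. Of the 456 peaks, 70 were enriched at every stage (15.4%, against 14.9% of all peaks), in 45 of the 85 genes, and 45 were depleted at every stage (9.87%, against 19.4%). Another 114 were neither enriched nor depleted at any stage. With both MEL1 S4 preparations left out, an alternative added after the data were seen, 57 peaks were enriched at every stage.

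The peaks of each family divided as follows, with no test between families. Over all peaks of the table, 14.9% were enriched and 19.4% depleted at every stage. The clustered protocadherins had 14 of 68 peaks enriched at every stage and none depleted, the other protocadherins 11 of 50 and none, and the FAT genes 7 of 38 and none. Plexins had 4 of 43 enriched and 14 depleted, and classical cadherins 3 of 37 enriched and 11 depleted. Eph receptors had 8 of 49 enriched and 9 depleted, and semaphorins 5 of 58 and 2. FAT3 had 4 such enriched peaks, and CELSR1, EPHA4, FAT1, PCDH20 and PCDH7 had 3 each. The last listed peak of a gene was enriched at every stage in 16 of 85 genes (18.8%), and 54 of 371 other peaks were (14.6%), against 14.9% of all peaks.

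CELSR1 peak 1857 had the highest ratio of peaks with a mean of at least 20 input counts. Its IP over input was 9.08 and 11.3 in H1 S0, 9.2 and 4.1 in MEL1 S0, 12.4 and 12.3 in H1 S3, 14.5 and 5.99 in MEL1 S3, 16.1 and 7.1 in H1 S4, 6.29 and 5.01 in MEL1 S4, 12.7 and 14 in H1 S6 and 10.2 and 11.5 in MEL1 S6, and the mean log2 ratio over stages was 3.23. No stage stood apart at this peak. At the other end, PLXNB2 peak 1458 had IP over input of 0 to 0.111 in the 16 preparations, a mean log2 ratio of -6.09, with a mean of 227 input counts per library. At the gene level, 3 genes, EPHA1 (0.0762 to 0.499), EPHB4 (0.078 to 0.615) and CDH2 (0.285 to 0.692), were below 1 in 16 of 16 preparations, and 35 were above 1 in 16 of 16, among them EFNB2 (2.53 to 5.21), FAT1 (1.47 to 2.97) and TENM3 (1.59 to 5.34). The same counts were not made over all genes of the table, so whether they are usual there is not known.

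Changes of m6A between stages were few apart from S4, where the IP libraries also stood apart. Mitochondrial transcripts took 0.0465% and 0.051% of counts in the H1 S4 IP libraries and 0.388% to 2.25% in all other IP libraries. The MEL1 S4 IP libraries were the shallowest, at 2483580 and 2378881 counts. The part of these traits in the changes at S4 was not tested. The median peak of the whole table moved by -0.20 from S0 to S3, -0.36 from S3 to S4, 0.19 from S4 to S6 and -0.35 from S0 to S6 on the log2 scale, so changes are also given relative to it. No peak of these genes was called at S3 against S0 (0.0498% of all peaks either way, edgeR; 17 member peaks had an unadjusted p under 0.05 and DESeq2 called 0). At S4 against S3, 2 were higher (0.751% of all peaks) and 16 lower (5.85%). At S6 against S4, which shares the S4 libraries, 14 were higher (5.31%) and 12 lower (2.26%), and at S6 against S0, which shares the S0 libraries, 4 were lower (1.18%) and none higher. With TMM within each library type, a change of scaling alone, 0 were higher and 7 lower from S3 to S4, and 7 higher and 13 lower from S4 to S6, so that the balance turned in the latter step. DESeq2, which has another test as well as another scaling, gave 13 higher and 12 lower, then 12 and 27. The 18 calls at S4 against S3 were 11 without H1 S4 replicate 2 and 28 without MEL1 S4 replicate 2. They were 8 and 6 without H1 S3 replicates 1 and 2. Without H1 S4 replicate 1 they were 3, 2 higher and 1 lower, and the median peak moved by 0.03. In H1 alone 51 were higher and 157 lower, and in MEL1 alone 25 and 20. Without both MEL1 S4 preparations the 18 calls were 71, while the calls over all peaks were 5454 in place of 1724. The 26 calls at S6 against S4 were 10 without either H1 S6 replicate and 9 and 10 without MEL1 S6 replicates 1 and 2. Without H1 S4 replicate 1 they were 17, 6 higher and 11 lower. The 4 at S6 against S0 were 0 without any one of the MEL1 S0 and MEL1 S6 replicates, 1 to 8 without 1 of the other libraries, and 18 with DESeq2.

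TENM3 peak 9151 was low at S4 in both lines. Its IP over input was 7.92 and 9.04 in H1 S3, 2.94 and 2.33 in H1 S4 and 7.6 and 7.48 in H1 S6, and 9.55 and 6.03, 3.27 and 2.36, and 8.57 and 6 in MEL1. The 4 S4 values were below all others. The log2 change was -1.59 ± 0.36 at S4 (-1.23 relative to the median peak, adjusted p = 0.0153, edgeR) and 1.47 ± 0.36 at S6 (1.29 relative to it, adjusted p = 0.0212, edgeR). In H1 S4 replicate 2 this peak had 755 input counts against 312 in replicate 1. SEMA6A peak 2357, one of the most deeply covered, went the same way, from 2.95 to 3.37 at S3 to 0.989 to 1.63 at S4 (log2 change -1.29 ± 0.34, -0.93 relative to the median peak, adjusted p = 0.0312, edgeR). PCDHA6 peak 3551 went from 2.32 to 3.07 at S3 to 0.36 to 0.782 at S4 (-1.93 ± 0.43, -1.57 relative, adjusted p = 0.0149, edgeR). SEMA6D peak 5701 went from 5.76 to 7.13 to 1.02 to 2.94 (-2.14 ± 0.63, -1.79 relative, adjusted p = 0.0514, edgeR) and back to 7.02 to 10 at S6 (2.23 ± 0.62, 2.04 relative, adjusted p = 0.0411, edgeR). In H1 S4 its ratio was 2.87 in replicate 1, with 70 input counts, and 1.03 in replicate 2, with 421. The MEL1 S4 ratios of this peak, 2.94 and 1.02, rest on 15 and 21 input counts. Calls were tested over 24 alternatives, 16 of them with a library left out. The calls of TENM3 peak 9151 and PCDHA6 peak 3551 at S4 were lost in 1 each, without H1 S4 replicate 1. That of SEMA6A peak 2357 was lost in 3, and those of SEMA6D peak 5701 in 8 at S4 and 1 at S6.

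At other called peaks 1 line moved more. SEMA3A peak 5072 went in H1 from 7.94 and 9.09 at S3 to 1.71 and 1.29 at S4, and was at 5.03 and 4.86 in MEL1 S4, with 9.62 and 7.13 in MEL1 S3 (-1.82 ± 0.49, -1.46 relative to the median peak, adjusted p = 0.0367, edgeR). TENM3 peak 7701 was at 1.99 and 1.56 in H1 S4 and 8.17 and 7.8 in H1 S6, against 5.89 and 5.66, then 10.3 and 10 in MEL1 (1.60 ± 0.46 at S6 against S4, 1.41 relative, adjusted p = 0.0479, edgeR). PLXNA1 peak 7251, chosen here after its values were seen, was at 4.59 and 3.43 in H1 S4 and 0.325 to 1.16 in every other preparation (-1.67 ± 0.58 at S6 against S4, adjusted p = 0.0986, edgeR). Peaks of CDH1 had IP counts in MEL1 S4 that were near 0 in H1 S4. At peak 3501, MEL1 S4 had 112 and 236 IP counts for 202 and 243 input counts, and H1 S4 had 8 and 0 for 89 and 117. IP counts at CDH1 peaks 4501, 4601 and 5051 were likewise 0 in both H1 S4 libraries and 24 to 68 in MEL1 S4. All 4 were called lower at S6 against S4 (adjusted p of 0.0641, 0.0614, 0.025 and 0.0979, edgeR), where MEL1 S6 had 0 to 18 IP counts. EFNB2 peak 2270 was at 0.411 to 2.04 at S0, 0.163 to 0.371 at S3 and 0.0869 to 0.209 at S6, with 1.04 and 1.4 in MEL1 S4 and 0.189 and 0.385 in H1 S4, and fell by 2.69 ± 0.56 at S6 against S0 (-2.33 relative, adjusted p = 0.0368, edgeR). Over the same 24 alternatives, the call of SEMA3A peak 5072 was lost in 5, that of TENM3 peak 7701 in 8, those of CDH1 peaks 3501, 4501, 4601 and 5051 in 8, 9, 2 and 14. That of EFNB2 peak 2270 at S6 against S0 was lost in 5. All 4 CDH1 calls were lost in H1 alone and without both MEL1 S4 preparations.

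Several of the largest m6A changes were at sparse peaks. At SEMA6A peak 2257 the IP counts were 0 in all 4 S4 libraries for 6 to 18 input counts, and at UNC5D peak 4901 0 for 0 to 5, so that no fold is given. PCDHA12 peak 2851 had 23 and 12 IP counts in H1 S4 and 0 and 0 in MEL1 S4, against 101 to 236 at S3 (adjusted p = 0.00543, edgeR), and 32 to 158 at S6 (adjusted p = 0.00662, edgeR). SEMA4C peak 108 had 0 to 4 IP counts at S4 and 2 to 74 at S3 (adjusted p = 0.0411, edgeR), and SEMA4C peaks 358 and 558 had 1 to 6 and 0 to 7 IP counts at S6 against 23 to 152 and 11 to 219 at S0 (adjusted p of 0.0623 and 0.096, edgeR). PCDHGB6 peak 4001 had input counts of 0 in all 4 S3 libraries, and its call at S4 (adjusted p = 0.0444, edgeR) has no ratio behind it. CDH4 peak 3851 had 13 to 16 IP counts in H1 S4 and 334 and 424 in H1 S6 (adjusted p = 0.0116, edgeR). SEMA6A peak 4607 had 44 and 62 in MEL1 S4 and 0 and 2 in MEL1 S6 (adjusted p = 0.0329, edgeR). TENM3 peak 3201 had 52 and 33 in H1 S4 and 0 and 2 in H1 S6 (adjusted p = 0.0394, edgeR), and TENM3 peak 6351 had 0 to 8 at S6 against 14 to 91 at S0 (adjusted p = 0.0769, edgeR). Of these calls, those of PCDHA12 peak 2851 were lost in 0 of the 24 alternatives, that of CDH4 peak 3851 in 1, SEMA6A peaks 2257 and 4607 in 2 and 3, SEMA4C peak 108 in 4 and UNC5D peak 4901 in 5. More often lost were TENM3 peak 3201 in 6, PCDHGB6 peak 4001 in 7, SEMA4C peak 358 in 9, TENM3 peak 6351 in 11 and SEMA4C peak 558 in 13.

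**Figure D5:**
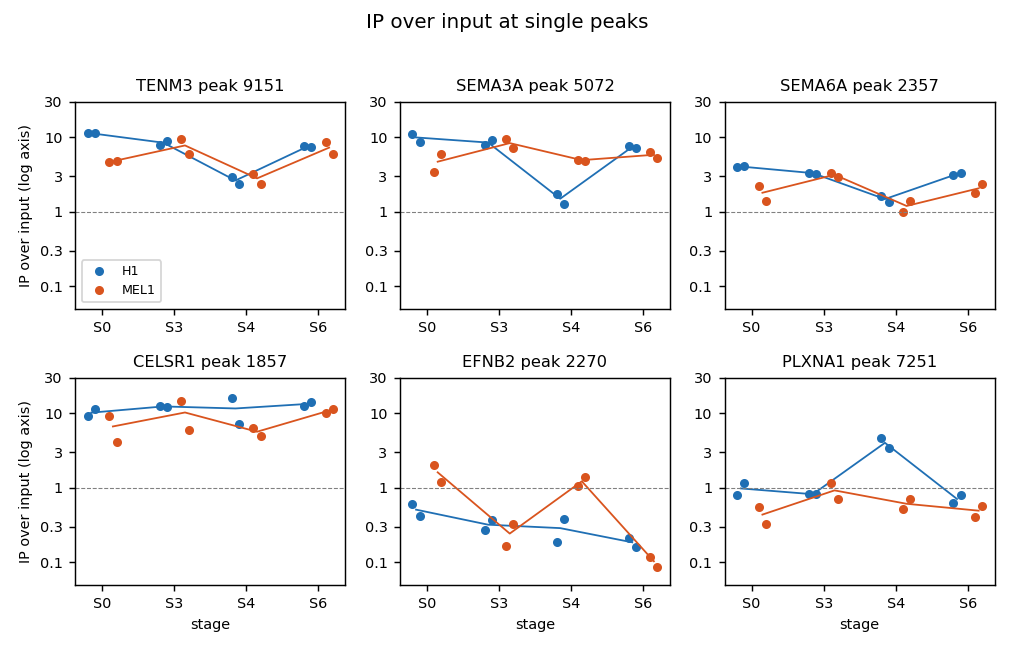
IP over input of 6 peaks by stage on a log axis, with a point for each preparation, a line through the mean of the 2 replicates of H1 (blue) and MEL1 (orange), and a dashed line at 1, the trimmed mean peak. TENM3 peak 9151 and SEMA6A peak 2357 are lowest on average at S4 in both lines, SEMA3A peak 5072 and PLXNA1 peak 7251 move at S4 in H1, and CELSR1 peak 1857 stays above 3 throughout.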

How the data were processed

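The input and m6A IP libraries of the 16 preparations were used. The authors purified mRNA, fragmented it by sonication, enriched methylated fragments with an m6A antibody and sequenced stranded libraries. With MeRIPtools they counted reads in 50-bp bins of Ensembl 94 genes and joined the called peaks. The authors deposited a table of unnormalized read counts, 1 row a merged peak and 1 column a library. The aligner and genome build are not given in the sources used here, nor whether counting used strand. A gene's input count is the sum over its merged peaks, so a gene enters only with a called peak, and the planned count per gene was replaced by this sum. Identifiers were matched to symbols for 7938 of 7978 genes.

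The tests ran under R 4.3.3 in edgeR 4.0.16 (limma 3.58.1), with TMM scaling and a minimum total of 10 counts, which left 7973 genes and 26104 peaks. Changes in input were fitted with stage and cell line, the difference between lines as the interaction in a model with 1 mean per line and stage, and changes in m6A as the stage by library type term over 32 libraries, with the line added. IP libraries were not used for levels. A standard error is the log2 change divided by the square root of F. DESeq2 1.42.0, the study's tool, was an alternative, with other scaling, other filters, no line term, only the libraries compared, the highest peak alone, each line alone and each library left out. Groups with at most 3 counts get a ratio with an interval that covers counting error only. Input depth had a median of 4318760 counts and mitochondrial transcripts took 11.6% to 41% of input counts. Replicates differed by more than sampling noise (chi-square per degree of freedom 1.64 to 33.4). Scripts were tested on simulated data.

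The members, the lists and the rule for named genes were chosen with earlier results of these data known. The rule names, in each input comparison, up to 8 called rises and 8 called falls of largest size with a mean of at least 1 CPM, a fixed set of 24 genes of which 23 had counts, the 6 genes with the smallest adjusted p between lines and for each interaction, up to 8 called m6A genes per comparison, and the highest and lowest peak. Of the enterochromaffin list 0 of 4 genes had counts, of the endothelial list 1 of 6 (at most 47.5 CPM), of the mesenchymal list 5 of 10 (highest in MEL1 S4, 723 to 791 CPM) and of the duct list 3 of 4 (highest in MEL1 S6, 8250 to 9060 CPM).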

Additional observations from a re-analysis of the deposited data

Results flagged for a closer look

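The change from S0 to S3 differed between the lines (edgeR, interaction term, adjusted over all genes) in the genes listed here. CELSR2, FAT1, PCDH18, PCDHB5, ROBO1 and EPHA1 were named for the smallest adjusted p in this test, so that they differ follows from the choice. Given as the log2 change in MEL1 minus that in H1, the difference was -3.30 for CELSR2, -2.54 for FAT1, -3.07 for PCDH18, -3.16 for ROBO1 and 1.89 for EPHA1. Among the clustered protocadherins it was -5.03 for PCDHB5, -3.40 for PCDHB15, -2.61 for PCDHGB4, -1.56 for PCDHGC3, -1.48 for PCDHGA10 and -1.27 for PCDHB2, with adjusted p-values of 2.24e-08, 3.41e-06, 0.00149, 0.00206, 0.0457 and 0.000296. For PCDHAC2 the fitted difference was -5.13 (adjusted p = 0.0969), with 0 counts in both MEL1 S3 libraries, so that its size depends on the fit and is no bound. In all of these but EPHA1 the MEL1 change was the lower one.

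The change from S0 to S6 differed by -3.85 for EFNB3, 2.70 for EPHA1, 2.25 for PCDH1, 2.56 for SEMA4G, 2.02 for EPHA2 and 2.30 for PLXNB2 in the same test, by whose smallest adjusted p they were named. Among the clustered protocadherins the change to S6 differed by -4.51 for PCDHB5, -4.16 for PCDHB15, -4.05 for PCDHGB4 and -1.51 for PCDHGA10, and by 2.41 for PCDHGB7, with adjusted p-values of 1.76e-06, 9.76e-06, 9.76e-05, 0.0679 and 0.000925. PCDHGB7 was at 10.6 and 15.7 CPM in H1 S0 and 10.3 and 12.8 in H1 S6, and at 2.67 and 3.70 in MEL1 S0 and 16.1 and 13.7 in MEL1 S6.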

How the results depend on the processing

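Of the 85 genes, 49 were called at S3 against S0 and 36 to 63 under the alternatives, with 39 to 53 when a replicate was left out, 47 at S6 against S0 (43 to 48 with a replicate left out), 37 between the lines (36 to 40), and 45 and 36 for the interactions (41 to 46 and 32 to 37). The 5 calls at S4 against S3 became 12 with DESeq2, 0 without the line term, 15 with only the 8 libraries compared, 16 within H1 and 34 within MEL1, and 1 to 7 with a replicate left out. They were 1 without H1 S4 replicate 2, 2 without either H1 S3 replicate or MEL1 S3 replicate 1, and 3 without H1 S6 replicate 2, MEL1 S3 replicate 2, MEL1 S4 replicate 2 or MEL1 S6 replicate 2. The 6 calls at S6 against S4 became 12 with DESeq2, 3 without the line term, 13 with only the 8 libraries, 13 within H1, 31 within MEL1, and 2 to 9 with a replicate left out (3 without MEL1 S6 replicate 1, 2 without replicate 2, and 9 without H1 S4 replicate 2).

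The 0 m6A calls at S3 against S0 became 13 in H1 alone and 32 in MEL1 alone, and stayed 0 to 0 with a replicate left out. Over all peaks of the table the calls went from 13 to 1590 in H1 alone and 2298 in MEL1 alone. The 18 at S4 against S3 became 208 in H1 alone, 45 in MEL1 alone, 7 with TMM within library type, 71 without both MEL1 S4 preparations and 3 to 28 with a replicate left out (8 and 6 without H1 S3 replicates 1 and 2, 3 and 11 without H1 S4 replicates 1 and 2, 28 without MEL1 S4 replicate 2). Calls over all peaks of the table moved too, from 1724 to 12054 in H1 alone and 3312 in MEL1 alone. They were 724 with TMM within library type and 5454 without both MEL1 S4 preparations. The 26 at S6 against S4 became 182 in H1 alone, 54 without both MEL1 S4 preparations, 39 with DESeq2 and 9 to 29 with a replicate left out (17 without H1 S4 replicate 1, 10 without either H1 S6 replicate, 9 and 10 without MEL1 S6 replicates 1 and 2). Over all peaks the 1978 calls of this step became 10847 in H1 alone, 5022 without both MEL1 S4 preparations and 3449 with DESeq2. The 4 at S6 against S0 became 18 with DESeq2, 48 in H1 alone, 32 in MEL1 alone, 1 with TMM within library type, 22 without both MEL1 S4 preparations and 0 to 8 with a replicate left out (0 without either MEL1 S0 or MEL1 S6 replicate, 1 without H1 S4 replicate 1 or either H1 S6 replicate, 2 without either H1 S3 replicate, 8 without H1 S4 replicate 2). Here the 328 calls over all peaks became 1573 with DESeq2, 2807 in H1 alone and 2843 in MEL1 alone. The 70 peaks enriched at every stage were 47 to 101 under the alternatives and 62 to 74 with a replicate left out. The cause was not tested. At S6 against S4, TENM3 peak 3201 turned to 0.15 in MEL1 alone, CDH1 peak 4501 to 2.13 in H1 alone and 1.14 without both MEL1 S4 preparations, and CDH1 peak 5051 to 3.01 and 2.41. Under the alternatives run for single genes and peaks no other named change reversed. Those did not include the input of each line alone, where several named genes had the opposite sign in 1 line, among them PCDHB5 (0.06), ROBO1 (0.02), EPHA2 (-0.37) and EPHB4 (-0.79) in H1 at S6 against S0. The input tests within lines and the settings without MEL1 S4 were chosen after seeing the data.

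Same-numbered input libraries of a line had correlations of deviations from -0.00784 to 0.128, 4 of 12 above 0.1 (4 of 6 in MEL1, 0 of 6 in H1), and input and IP of a preparation -0.154 to 0.0452, 0 of 8 above 0.1, and as not every pair was above 0.1 the numbers were not taken to pair the samples. The replicate block left 2 input calls in the step from S3 to S4 (lost were SEMA3D, UNC5B and CDH4, adjusted p of 0.151, 0.116 and 0.187), lost that of SEMA3C from S4 to S6 (0.155), and 26, 21 and 0 m6A calls at S4 against S3, S6 against S4 and S6 against S0.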
